A study of Mus musculus with 7 samples.

Results

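The SOX genes described here are the 6 that cartilage cells are best known to use or that stand closest to those, namely Sox9, Sox8, Sox5, Sox6, Sox4 and Sox11. They were picked by gene name from the 52459 gene names in the count table, and each name matched 1 row. Bulk RNA sequencing was done on 7 libraries of primary mouse articular chondrocytes, taken by digestion from the femoral head and cultured in DMEM with fetal bovine serum. The cells were treated for 24 h with BMP2 at 100 ng/ml (3 libraries, replicates 1, 2 and 3), with TGFβ1 at 5 ng/ml (2 libraries, replicates 1 and 3) or with vehicle (2 libraries, replicates 1 and 2), and no genotype, strain or age is given in the labels. The labels do not say whether replicates came from separate animals or cultures, and p-values accordingly measure no more than the spread among these libraries, which could be technical.

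SOX proteins bind DNA through an HMG box that bends the helix, and they fall into lettered groups of close relatives. SOX9, of group E, is the factor that chondrocytes need to form and to keep making cartilage matrix, and SOX8 is its close relative. SOX5 and SOX6, of group D, have no activation domain of their own and strengthen the action of SOX9 on cartilage genes, whereas SOX4 and SOX11, of group C, are activators typical of progenitor cells, including the mesenchyme in which the skeleton forms. TGFβ1 and BMP2 are ligands of one family whose receptors activate different SMAD proteins, SMAD2 and SMAD3 for the first and SMAD1, SMAD5 and SMAD8 for the second.

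The total count ranged from 6747997 to 10686885 in the BMP2 libraries, from 16271793 to 18047765 in the TGFβ1 libraries and from 6885056 to 7387051 in the vehicle libraries. Genes for ribosomal proteins took 1.03% to 1.35% of the counts with BMP2, 6.12% to 6.16% with TGFβ1 and 1.01% to 1.06% with vehicle, and fold changes in the TGFβ1 libraries followed transcript length. All tested genes with a transcript of at most 750 nt had a median log2 fold change of 2.86 for TGFβ1 against vehicle, and those above 7000 nt had a median of -0.57. The TGFβ1 results of the 6 SOX genes are therefore given also with an offset for length and GC content in each library. All 9 chondrocyte markers were detected in every library, and their summed level was 47490 to 53950 CPM, the count scaled to library size, with BMP2, 35330 to 41020 CPM with TGFβ1 and 55570 to 55830 CPM with vehicle. Of these 9 markers 7 fell with TGFβ1 (8 with the offset), where 25.8% of all tested genes fell (23.9% with the offset). With BMP2 1 rose and 2 fell (2 and 2 with the offset). Of all tested genes 5.33% rose and 6.15% fell with BMP2 (6.83% and 6.4% with the offset). Fibroblast markers summed to 217 to 235 CPM with BMP2, 316 to 384 CPM with TGFβ1 and 160 to 190 CPM with vehicle. Lum made up most of each sum, with means of 214.3 CPM with BMP2, 335.5 CPM with TGFβ1 and 160.8 CPM with vehicle. Of the 4 fibroblast markers tested, Lum and Col14a1 rose with TGFβ1, where 30.4% of all tested genes rose. Pdgfra and Cd34 did not pass. Markers of pericytes and smooth muscle summed to 308 to 360 CPM with BMP2, 381 to 388 CPM with TGFβ1 and 214 to 220 CPM with vehicle. Most of that was Cspg4, with means of 308.6 CPM with BMP2, 322 CPM with TGFβ1 and 191.1 CPM with vehicle. Adipocyte markers summed to 8.66 to 17.9 CPM with BMP2, 49.9 to 57.0 CPM with TGFβ1 and 4.81 to 8.37 CPM with vehicle, nearly all of it from Fabp4, which had 8.49, 17.4 and 17.4 CPM with BMP2, 56.5 and 49.0 CPM with TGFβ1, and 4.68 and 8.13 CPM with vehicle. Fabp4 had a log2 fold change of 3.03 with TGFβ1, or 1.09 with the offset. Osteoblast markers summed to 184 to 265 CPM with BMP2, 192 to 223 CPM with TGFβ1 and 237 to 244 CPM with vehicle. Of the 4 tested, Sp7 rose with BMP2 (log2 fold change 1.31, adjusted p = 0.000415) and Ibsp fell (-1.12, adjusted p = 0.000713). With TGFβ1 0 of these 4 rose and 1 fell, or 3 with the offset. The leukocyte, glial and erythroid lists each summed to at most 28.9 CPM in any library. The part of these cell types in the SOX changes was not tested. In bulk samples, fewer cells of a type and less RNA per cell cannot be told apart.

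The SOX genes did not move as a block. Both group E genes, Sox9 and Sox8, fell with TGFβ1, whereas with BMP2 Sox8 rose, the group C genes Sox4 and Sox11 fell, and Sox9 did not pass the test. Among the 6 genes, 4 fell with TGFβ1 (Sox9, Sox8, Sox5 and Sox6) at an adjusted p under 0.05 in edgeR, where 25.8% of all 13367 tested genes fell. By contrast 0 rose, as in DESeq2 and at an unadjusted p under 0.05, where 30.4% of all tested genes rose. With the offset 2 fell, Sox9 and Sox8, and 1 rose, Sox11, where 23.9% of all tested genes fell and 25.3% rose. That rise of Sox11 did not pass when either TGFβ1 library was left out. With BMP2 against vehicle, 1 rose, Sox8, where 5.33% of all tested genes rose (6.83% with the offset), and 2 fell, Sox4 and Sox11, where 6.15% fell (6.4% with the offset). The offset left the same 3 genes called, but the Sox11 call was lost in DESeq2 and when any 1 BMP2 library was left out. Between the ligands, 3 were higher with BMP2 (Sox9, Sox8 and Sox6), where 28.1% of all tested genes were higher, and 2 were lower (Sox4 and Sox11), where 33.3% were lower. With the offset Sox9 and Sox8 were higher, where 27.3% of all tested genes were, and the same 2 were lower, where 28.2% were. All 6 genes passed the filter on low counts in these libraries, and the comparisons of each ligand with vehicle share the same 2 vehicle libraries.

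**Figure D1:**
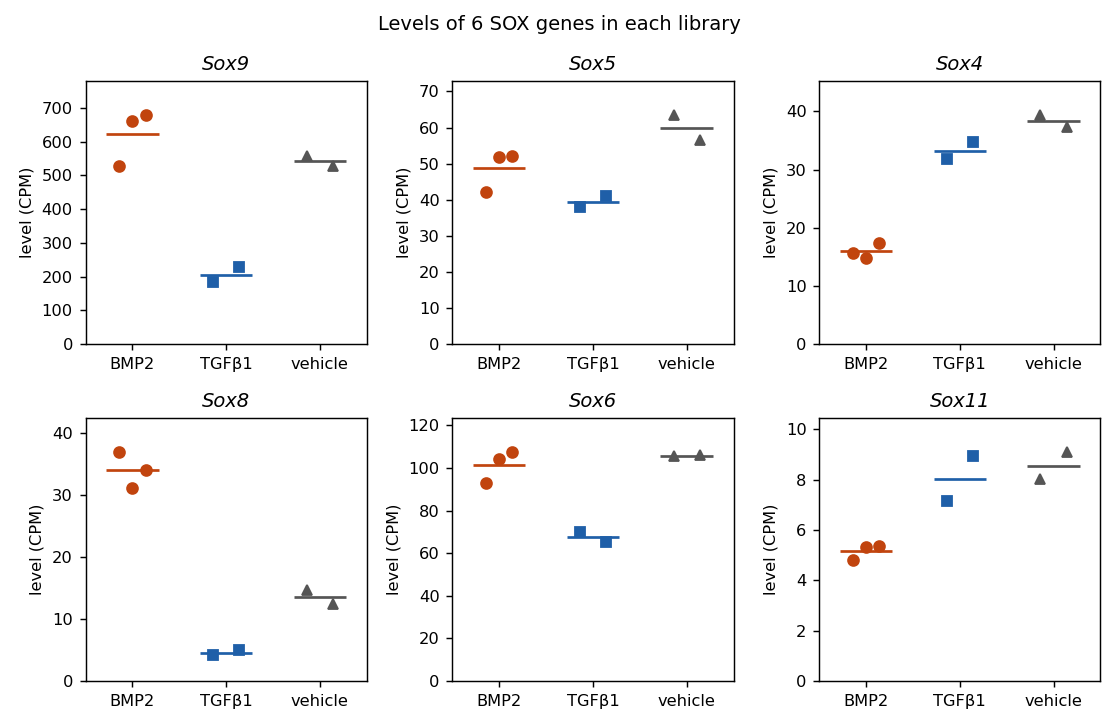
Level of each of the 6 SOX genes in every library, in CPM on linear axes that start at 0, with BMP2, TGFβ1 and vehicle from left to right; each point is 1 library and each bar the mean of its group. Sox9 and Sox8 are lowest in the 2 TGFβ1 libraries, whereas Sox4 and Sox11 are lowest in the 3 BMP2 libraries.

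Genes were also counted by whether the CPM ranges of 2 groups were apart, without the offset. With TGFβ1 all members but Sox11 lay below the vehicle range, where 40.1% of all tested genes lay below. Of these, Sox4, Sox5 and Sox6 had log2 fold changes of 0.015, -0.053 and -0.047 with the offset, and none passed. With BMP2, Sox8 lay above the vehicle range, where 21.9% of tested genes lay above, and Sox5, Sox4 and Sox11 lay below, where 22.7% lay below. Between the ligands, Sox9, Sox8, Sox5 and Sox6 were higher and apart with BMP2, where 35.1% of tested genes were, and Sox4 and Sox11 were lower and apart, where 38.6% were.

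Sox9 (ENSMUSG00000000567.5) lies on chromosome 11 of mm10, chr11:112782224-112787760 on the plus strand, and its exons sum to 4135 nt. It had 529, 661 and 678 CPM with BMP2, 184 and 227 CPM with TGFβ1, and 556 and 528 CPM with vehicle. Both TGFβ1 libraries were far below the other 5, and the BMP2 and vehicle libraries overlapped. Sox9 fell with TGFβ1 by 1.40 on the log2 scale (SE 0.16, adjusted p = 4.51e-05), a 2.63-fold lower level. With the offset the log2 fold change was -1.20 (adjusted p = 7.51e-05). Tested genes with transcripts of 4000 to 5000 nt, the class that holds Sox9, had a median of -0.26 and a lower quartile of -0.66 without the offset, so Sox9 lay below the quartiles of its class. Against vehicle, BMP2 gave Sox9 a log2 fold change of 0.20 (95% interval -0.13 to 0.53, adjusted p = 0.444), so that a rise of up to 0.53 or a fall of up to 0.13 is within the error. Directly compared, Sox9 was 3.02-fold higher with BMP2 than with TGFβ1 (log2 fold change 1.60, SE 0.16, adjusted p = 8.12e-06), and with the offset the log2 fold change was 1.42.

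Sox8 (ENSMUSG00000024176.10) responded in opposite directions to the ligands. It had 36.9, 31.2 and 34.0 CPM with BMP2, 4.12 and 5.04 CPM with TGFβ1, and 14.7 and 12.4 CPM with vehicle, from raw counts of 430, 235 and 362 with BMP2, 56 and 66 with TGFβ1, and 110 and 104 with vehicle. No 2 groups overlapped. Sox8 rose 2.52-fold with BMP2 (log2 1.33, SE 0.15, adjusted p = 0.000312) and fell with TGFβ1 by 1.56 on the log2 scale (SE 0.18, adjusted p = 4.27e-05), 2.96-fold. With the offset the fall was no smaller (log2 fold change -1.68, adjusted p = 1.43e-05). BMP2 over TGFβ1 the log2 fold change was 2.89 (SE 0.16, adjusted p = 1.03e-07), a 7.44-fold difference and the largest of the 6 genes in any of the 3 comparisons, and with the offset it was 3.04. The gene lies at chr17:25565892-25570686 on the minus strand of mm10, and 10.6% of its exon bases overlap 2810468N07Rik on the opposite strand. That neighbour had 10 to 26 counts in the BMP2 libraries, 11 to 21 in the TGFβ1 libraries and 5 to 15 in the vehicle libraries, and the labels do not state whether the counting used strand.

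The bases just upstream of the SOX genes were searched for SMAD and SOX letters, and the windows of the 3 genes that BMP2 moved are shown, because these genes differ in direction under a SMAD ligand. Each window is the 250 bases before the RefSeq transcript start on GRCm38.p6, written 5′ to 3′ on the strand of the gene, and capitals mark every match on either strand to 4 short motifs. The first is GGCGCC, a GC-rich element known to bind SMAD1 and SMAD5. The next is CAGAC, the SMAD3 and SMAD4 box, which reads GTCTG when it lies on the opposite strand. The other two are letters that SOX proteins bind, namely ACAATG, with the related form ACAAAG, each also searched as its reverse complement. Sox8 is chr17:25570687-25570936, Sox4 is chr13:28953700-28953949 and Sox11 is chr12:27342719-27342968, all on the minus strand.
Sox8: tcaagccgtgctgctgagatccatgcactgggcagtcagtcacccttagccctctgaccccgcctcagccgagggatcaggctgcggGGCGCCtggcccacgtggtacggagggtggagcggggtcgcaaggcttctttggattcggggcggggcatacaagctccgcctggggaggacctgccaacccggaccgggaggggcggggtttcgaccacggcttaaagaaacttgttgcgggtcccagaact
Sox4: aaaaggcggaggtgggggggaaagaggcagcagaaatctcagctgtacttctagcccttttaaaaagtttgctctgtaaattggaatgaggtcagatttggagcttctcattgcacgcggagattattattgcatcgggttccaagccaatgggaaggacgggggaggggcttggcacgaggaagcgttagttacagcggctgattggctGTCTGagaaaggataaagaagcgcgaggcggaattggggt
Sox11: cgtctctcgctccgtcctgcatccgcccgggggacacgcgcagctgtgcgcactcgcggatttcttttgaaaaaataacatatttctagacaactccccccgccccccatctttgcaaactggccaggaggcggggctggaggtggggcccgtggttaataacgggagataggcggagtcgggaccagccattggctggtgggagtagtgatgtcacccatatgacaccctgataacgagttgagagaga
The Sox8 window holds 1 GGCGCC, at position -163 from the start, and 9.59% of all 32851 RefSeq windows of 250 bases hold that motif. The Sox4 window holds 1 GTCTG, at position -40, and 42.2% of all windows hold CAGAC on either strand. The Sox11 window holds no match to these 4 motifs, of which ACAATG is in 10.7% of all windows and ACAAAG in 16.5%. The Sox8 window is 65.6% G and C, the Sox4 window 50.8% and the Sox11 window 58.0%. Windows were found for 5 of the 6 genes by symbol, all but Sox9. The window of Sox5 holds 1 CAGAC and 1 ACAATG. Sox6 has 6 windows, of which 2 hold CAGAC, 2 hold ACAATG and 5 hold ACAAAG, and neither Sox5 nor Sox6 has a GGCGCC. A match is a description of letters and not of a bound site.

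The group D genes moved little. Sox5 (ENSMUSG00000041540.16, chr6:143828425-144781977, minus strand) had 42.1, 52.0 and 52.0 CPM with BMP2, 38.0 and 41.0 CPM with TGFβ1, and 63.4 and 56.5 CPM with vehicle. Sox6 (ENSMUSG00000051910.13, chr7:115470872-116038796, minus strand) had 92.8, 104 and 107 CPM with BMP2, 70.1 and 65.0 CPM with TGFβ1, and 106 CPM in each vehicle library. The TGFβ1 libraries were below the vehicle libraries for both genes, and Sox6 overlapped between BMP2 and vehicle. Without the offset both fell with TGFβ1, Sox5 by 0.60 (SE 0.14, adjusted p = 0.00413) and Sox6 by 0.65 (SE 0.12, adjusted p = 0.00117) on the log2 scale. With the offset neither change passed, and Sox5 had a log2 fold change of -0.05 (95% interval -0.32 to 0.22, adjusted p = 0.745). Sox6 likewise had -0.05 (95% interval -0.31 to 0.21, adjusted p = 0.771). Both genes have long principal transcripts, of 7243 nt for Sox5 and 8227 nt for Sox6, and their log2 fold changes lay near the median of -0.57 of the 1020 tested genes above 7000 nt, inside its quartiles of -0.94 and -0.14. Transcripts of that length were lower as a class in the TGFβ1 libraries, and no fall of these 2 genes beyond that of their length class passed the test.

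**Figure D2:**
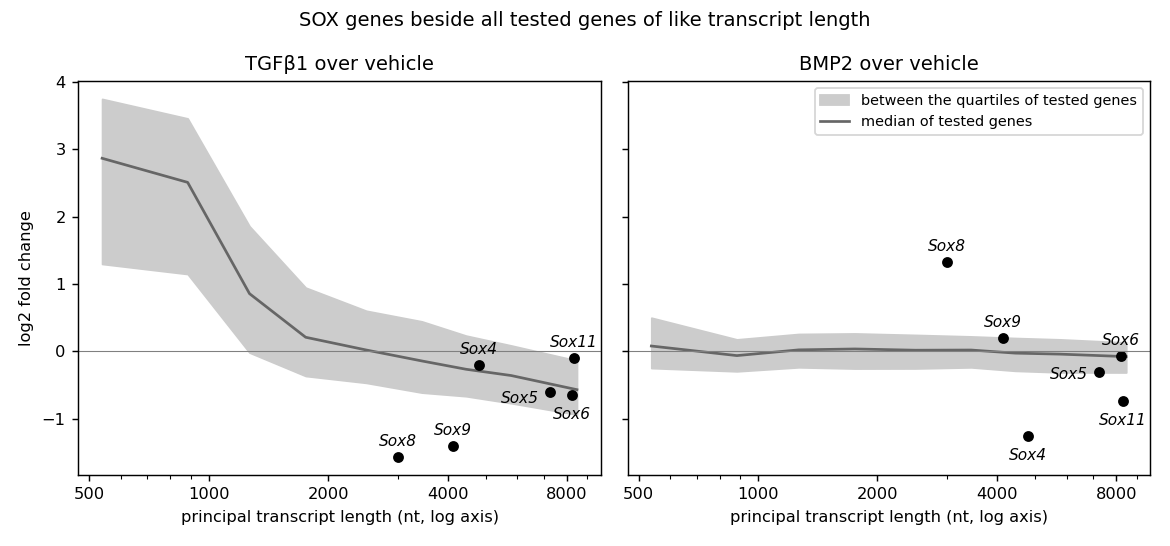
Log2 fold change against vehicle by principal transcript length (nt, log axis) for TGFβ1 (left) and BMP2 (right); black points are the 6 SOX genes, the grey line is the median of all tested genes in classes of length and the grey band the range between their quartiles. With TGFβ1, Sox9 and Sox8 lie below the band and Sox5 and Sox6 inside it, and the medians of the BMP2 panel stay between -0.08 and 0.08.

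BMP2 did not change either group D gene in the test. Sox5 had a log2 fold change of -0.30 against vehicle (95% interval -0.58 to -0.02, adjusted p = 0.172), with all 3 BMP2 libraries below both vehicle libraries. Sox6 had -0.06 (95% interval -0.31 to 0.19, adjusted p = 0.791). Between the ligands, Sox6 was higher with BMP2 than with TGFβ1 (log2 fold change 0.59, SE 0.11, adjusted p = 0.00107), which with the offset was 0.05 (adjusted p = 0.726). Sox5 had 0.30 for BMP2 over TGFβ1 (adjusted p = 0.0639) and with the offset -0.20 (adjusted p = 0.152). Of the exon bases of Sox5, 9.25% overlap Sox5os1 on the opposite strand, which had 0 or 1 counts in each library.

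Of group C, Sox4 and Sox11 were lowest with BMP2. Sox4 (ENSMUSG00000076431.4, chr13:28948919-28953713, minus strand) had 15.7, 14.8 and 17.3 CPM with BMP2, 31.8 and 34.7 CPM with TGFβ1, and 39.3 and 37.3 CPM with vehicle. All 3 BMP2 libraries lay well below the other 4. Sox4 fell with BMP2 by 1.26 on the log2 scale (SE 0.12, adjusted p = 0.000121) and was 2.08-fold lower with BMP2 than with TGFβ1 (log2 fold change -1.06, SE 0.12, adjusted p = 2.41e-05). With the offset these were -1.18 and -1.20. For TGFβ1 against vehicle the log2 fold change was -0.20 (95% interval -0.48 to 0.08, adjusted p = 0.194), or 0.02 with the offset. Of the Sox4 exon bases, 54.6% overlap Gm26735 on the opposite strand, which had 0 counts in all 7 libraries.

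Sox11 (ENSMUSG00000063632.6, chr12:27334264-27342574, minus strand) followed Sox4 at lower levels. It had 4.80, 5.30 and 5.36 CPM with BMP2, 7.14 and 8.93 CPM with TGFβ1, and 8.02 and 9.09 CPM with vehicle, from 40 to 57 counts with BMP2, 97 to 117 counts with TGFβ1 and 60 to 76 counts with vehicle. The BMP2 libraries lay below the other 4, and the TGFβ1 and vehicle libraries overlapped. Sox11 fell with BMP2 by 0.74 on the log2 scale (SE 0.19, adjusted p = 0.0309), but the adjusted p was 0.155 in DESeq2, and it was above 0.05 when any 1 BMP2 or vehicle library was left out, with log2 fold changes from -0.82 to -0.64. BMP2 over TGFβ1 its log2 fold change was -0.64 (SE 0.18, adjusted p = 0.00986), with 0.0838 in DESeq2 and 0.0884 without TGFβ1 replicate 3, where the log2 fold change was -0.48. With the offset it was -1.16 (adjusted p = 0.000134). TGFβ1 against vehicle gave -0.09 (95% interval -0.52 to 0.33, adjusted p = 0.700) and, with the offset, 0.49 (adjusted p = 0.0430), so its direction and call with TGFβ1 depended on the length correction. Under the offset the call was also lost when either TGFβ1 library was left out, with 0.59 (adjusted p = 0.0509) without replicate 1 and 0.38 (adjusted p = 0.202) without replicate 3. At 8311 nt, Sox11 has the longest principal transcript of the 6.

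**Figure D3:**
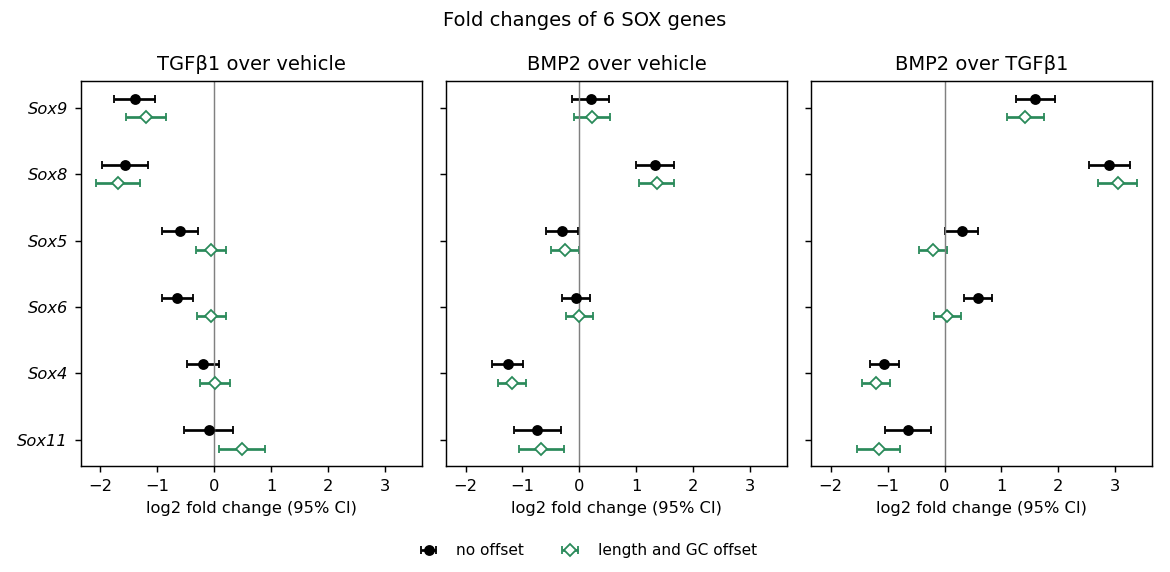
Log2 fold changes of the 6 SOX genes with 95% confidence intervals for TGFβ1 over vehicle, BMP2 over vehicle and BMP2 over TGFβ1; black circles are without and open green diamonds with the length and GC offset. The offset moves Sox5 and Sox6 to -0.05 for TGFβ1 over vehicle, and leaves Sox9 at -1.20 and Sox8 at -1.68.

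Per kilobase of the deposited gene length, Sox9 was by far the highest of the 6 genes in every group. It averaged 151 ± 20 CPM per kb with BMP2 (SD, n = 3), 49.8 ± 7.4 with TGFβ1 (SD, n = 2) and 131 ± 4.9 with vehicle (SD, n = 2). In vehicle, Sox9 ranked 163 of 13367 tested genes by this level. Next in vehicle came Sox4 at 7.99 ± 0.29, Sox6 at 7.14 ± 0.034, Sox8 at 4.35 ± 0.51, Sox5 at 4.17 ± 0.34 and Sox11 at 1.03 ± 0.091 CPM per kb (SD, n = 2 each). The ranges of Sox8 and Sox5 overlapped, so these neighbours cannot be ordered. Since the deposited length sums all annotated exons, the order among Sox4, Sox5, Sox6 and Sox8 depends on it: per kilobase of the principal transcript, Sox6 averaged 12.9 and Sox5 8.27 CPM per kb in vehicle, against the 7.99 of Sox4, whose range overlapped that of Sox5.

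With BMP2 the order below Sox9 was Sox8 at 10.9 ± 0.92, Sox6 at 6.84 ± 0.52, Sox5 at 3.39 ± 0.40, Sox4 at 3.33 ± 0.26 and Sox11 at 0.620 ± 0.037 CPM per kb (SD, n = 3 each), with Sox5 and Sox4 overlapping. With TGFβ1 it was Sox4 at 6.94 ± 0.44, Sox6 at 4.56 ± 0.24, Sox5 at 2.75 ± 0.15, Sox8 at 1.47 ± 0.21 and Sox11 at 0.967 ± 0.15 CPM per kb (SD, n = 2 each). Sox8 thus stood directly below Sox9 with BMP2 and second to last with TGFβ1. By the principal transcript, Sox6 with BMP2 was at 12.3 CPM per kb and Sox8 at 11.3, with overlapping ranges. Sox5 with BMP2 was then at 6.72 and Sox4 at 3.33, with ranges apart. With TGFβ1, Sox6 at 8.21 then stood above Sox4 at 6.94, also with ranges apart.

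The balance of the genes against Sox9 within a library differed between the groups. Per kilobase, Sox8 was at 6.25% to 9.25% of Sox9 with BMP2, 2.94% to 2.96% with TGFβ1 and 3.13% to 3.51% with vehicle. Sox4 was at 1.94% to 2.56% of Sox9 with BMP2, 13.2% to 14.9% with TGFβ1 and 6.10% in both vehicle libraries. Sox4 therefore differed more between the ligands against Sox9 than in its own level. Sox6 was at 4.39% to 4.89% of Sox9 with BMP2, 7.98% to 10.6% with TGFβ1 and 5.29% to 5.61% with vehicle. Sox5 was at 2.21% to 2.29% with BMP2, 5.19% to 5.92% with TGFβ1 and 3.08% to 3.28% with vehicle. The ratio of Sox5 to Sox6, genes of similar length, overlapped between TGFβ1 and vehicle, with 0.468 to 0.515 for BMP2, 0.559 to 0.650 for TGFβ1 and 0.548 to 0.620 for vehicle. These ratios are a description, with no test run on them, and ratios of genes of unlike length hold the length trend of the TGFβ1 libraries. They use the deposited length, and by the principal transcript Sox5 and Sox6 stand higher against Sox9. In vehicle, Sox6 averaged 12.9 CPM per kb by the principal transcript against 7.14 by the deposited length, and Sox5 8.27 against 4.17. Sox9 was at 131 by both.

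**Figure D4:**
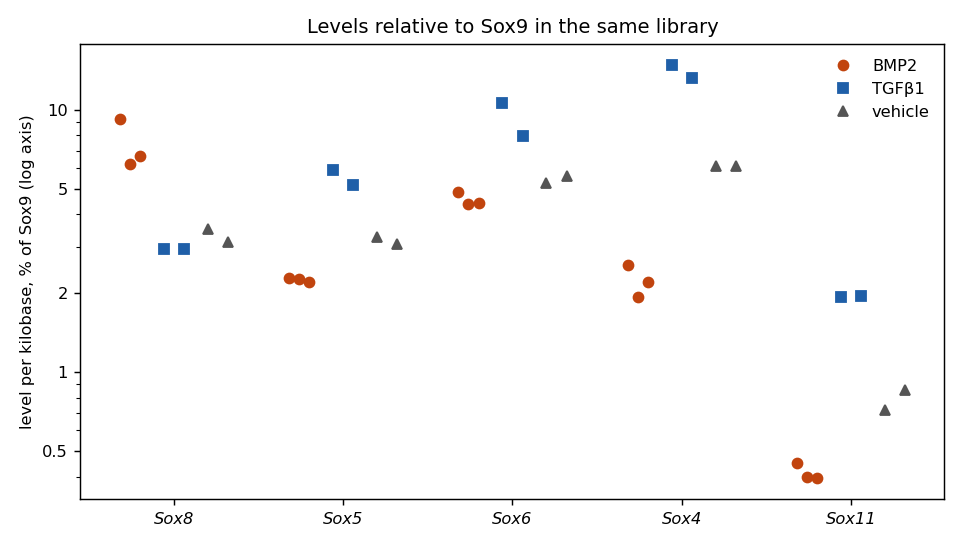
Level per kilobase of the deposited gene length of 5 SOX genes as a percentage of Sox9 in the same library (log axis). Each point is 1 library, with BMP2 in circles, TGFβ1 in squares and vehicle in triangles. Sox4 stands at 1.94% to 2.56% with BMP2 and at 13.2% to 14.9% with TGFβ1, and Sox8 is above 6% of Sox9 in the BMP2 libraries alone.

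Another 14 SOX genes were looked for, and 3 of them had enough counts to be tested. Sox12, the remaining group C gene, fell with TGFβ1 by 0.76 on the log2 scale (SE 0.16, adjusted p = 0.00235; -0.72 with the offset), with 10.3, 10.1 and 11.1 CPM with BMP2, 8.68 and 8.17 CPM with TGFβ1, and 15.4 and 13.2 CPM with vehicle. Its log2 fold change with BMP2 was -0.44 (95% interval -0.76 to -0.11, adjusted p = 0.0853). Sox13, the remaining group D gene, did not pass in any comparison, with 20 to 42 counts with BMP2, 19 to 45 counts with TGFβ1 and 15 to 19 counts with vehicle. Sox7, of group F and best known from endothelium, was nearly lost with TGFβ1. It had 43, 23 and 27 counts with BMP2, 2 and 1 counts with TGFβ1, and 46 and 33 counts with vehicle. Pooled over libraries and scaled for depth, that was 44.4-fold lower with TGFβ1 than with vehicle (95% counting interval 14.6 to 220), and the fitted change passed (log2 fold change -5.34, SE 0.52, adjusted p = 1.17e-05; -5.30 with the offset). With BMP2 against vehicle, Sox7 had a log2 fold change of -0.69 (adjusted p = 0.164).

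The defining endothelial gene Cdh5 had 0 counts in all 7 libraries. The endothelial marker Pecam1 had 13, 12 and 16 counts with BMP2, 4 and 6 counts with TGFβ1, and 0 in both vehicle libraries. Egfl7, the endothelial marker with the most counts, averaged 2.85 CPM with BMP2, 1.84 CPM with TGFβ1 and 2.41 CPM with vehicle. Its log2 fold change with TGFβ1 was -0.39 (adjusted p = 0.308), and with the offset -1.17 (adjusted p = 0.0116). The part of endothelial cells in the Sox7 change was not tested. The 7 endothelial markers summed to 4.38 to 5.17 CPM with BMP2, 2.98 to 3.24 CPM with TGFβ1 and 2.51 to 3.48 CPM with vehicle. The other 11 SOX genes were not tested, and 4 of them had 0 counts throughout. The highest single count among them was 10, for Sox10, the group E gene of glia and neural crest, which had 0, 0 and 1 counts with BMP2, 10 and 3 counts with TGFβ1, and 0 counts with vehicle.

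Cartilage genes known as targets of SOX9, SOX5 and SOX6 were read beside the factors from a list of 25, all of which were tested. The 9 chondrocyte markers above are all among these 25, so the counts of both lists share those genes. Lower target levels and fewer chondrocytes cannot be told apart here. With TGFβ1, where Sox9 was lower, 14 of 25 fell and 4 rose, where 25.8% of all tested genes fell and 30.4% rose. Their median log2 fold change was -0.53 against -0.02 over all tested genes. With the offset 15 fell and 4 rose with a median of -0.67, where 23.9% of all tested genes fell and 25.3% rose. The falls included the collagen gene Col27a1 (-2.32, adjusted p = 1.71e-07; -2.04 with the offset), Matn1, which encodes a matrilin of the cartilage matrix (-2.99, adjusted p = 7.22e-08; -3.31 with the offset), and Col9a1, a chain of the fibril-associated collagen IX (-1.75, adjusted p = 1.12e-06; -1.69 with the offset). Col2a1, the main cartilage collagen and the best known SOX9 target, had 34450, 28720 and 29680 CPM with BMP2, 26950 and 32200 CPM with TGFβ1, and 35170 and 35840 CPM with vehicle. Its log2 fold change with TGFβ1 was -0.26 (adjusted p = 0.145), or -0.08 with the offset, and its TGFβ1 libraries lay below both vehicle libraries but overlapped those with BMP2. Mia, a small secreted cartilage protein, rose by a log2 fold change of 4.34, which the offset reduced to 1.35.

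With BMP2, where Sox9 did not pass and Sox8 rose, 5 of the 25 targets rose and 5 fell, where 5.33% of all tested genes rose and 6.15% fell, with a median log2 fold change of 0.13 against 0 over all tested genes. Fgfr3, the FGF receptor that restrains growth of cartilage, rose with 1190, 841 and 832 CPM with BMP2, 69.9 and 80.5 CPM with TGFβ1, and 368 and 372 CPM with vehicle (log2 fold change of BMP2 over vehicle 1.37, adjusted p = 0.000724). Acan, the aggrecan core protein, rose by 0.64 (adjusted p = 0.00656), with 5556, 5136 and 5433 CPM with BMP2, 1792 and 1968 CPM with TGFβ1, and 3580 and 3332 CPM with vehicle. The Acan call was lost without vehicle replicate 1 (log2 fold change 0.69, adjusted p = 0.0606) or vehicle replicate 2 (0.59, adjusted p = 0.109). Fgfr3 and Acan shared with Sox8 the order BMP2 above vehicle above TGFβ1 with no overlap. So did Col27a1, Hapln1, Col9a3, Matn3, Susd5 and Papss2 among the 25 targets. How many of all tested genes had this order was not counted. Matn1 and Ucma, which encodes a secreted cartilage protein, fell with BMP2, by 1.54 (adjusted p = 5.11e-05) and by 2.19 (adjusted p = 0.000140) on the log2 scale. Between the ligands, 16 targets were higher and 4 lower with BMP2, where 28.1% of all tested genes were higher and 33.3% lower, with a median log2 fold change of 0.70 against -0.02 over all tested genes. With the offset, 8 targets rose and 6 fell with BMP2, where 6.83% of all tested genes rose and 6.4% fell. Between the ligands 14 were then higher and 2 lower, where 27.3% of all tested genes were higher and 28.2% lower. The counts for BMP2 over vehicle depended on single libraries: without vehicle replicate 1 they were 1 risen and 2 fallen, and without vehicle replicate 2 they were 2 and 2. The number fallen was also 2 without BMP2 replicate 2 or BMP2 replicate 3.

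**Figure D5:**
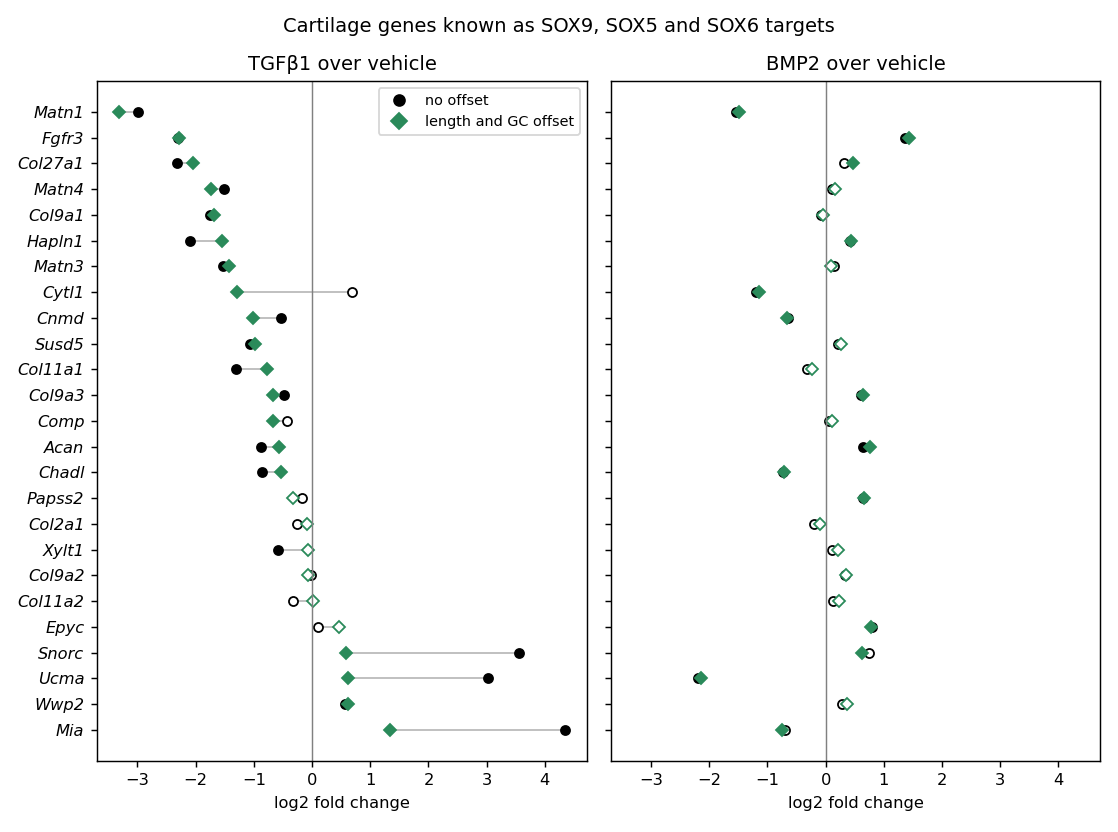
Log2 fold changes against vehicle of the 25 known SOX target genes for TGFβ1 (left) and BMP2 (right), without (circles) and with (diamonds) the length and GC offset; filled symbols have an adjusted p under 0.05 and a grey line joins the values of 1 gene. Most genes lie left of 0 with TGFβ1, and with BMP2 Ucma, Matn1 and Fgfr3 lie farthest from 0.

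Of 13 genes for partners and cofactors of SOX9, 12 were tested. Arid5a, which encodes a DNA-binding relative of the SOX9 cofactor ARID5B, rose with TGFβ1 by a log2 fold change of 1.70 (adjusted p = 1.64e-05; 1.77 with the offset), with 11.3, 9.02 and 11.4 CPM with BMP2, 34.6 and 28.1 CPM with TGFβ1, and 10.0 and 9.21 CPM with vehicle. Ep300 and Crebbp, the acetyltransferases that SOX9 recruits, fell with TGFβ1 by 0.95 (adjusted p = 7.76e-05) and 0.87 (adjusted p = 0.000256) on the log2 scale, and with the offset by 0.45 (adjusted p = 0.00678) and 0.37 (adjusted p = 0.0218). Ctbp2, a corepressor, fell by 0.65 (adjusted p = 0.00590), and with the offset by 0.83. In all, 1 partner rose and 4 fell with TGFβ1, with a median of -0.09, where 30.4% of all tested genes rose and 25.8% fell. With the offset 2 rose and 3 fell, where 25.3% rose and 23.9% fell. With BMP2, 1 of the 12 changed, Arid5b, which fell by 0.52 (adjusted p = 0.0144), where 6.15% of all tested genes fell. That call was lost in DESeq2 and without BMP2 replicate 2 or either vehicle replicate.

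Of 18 other transcription factors of the chondrocyte programme, 16 were tested, and 5 rose and 9 fell with TGFβ1, while 4 rose and 2 fell with BMP2. Of all tested genes 30.4% rose and 25.8% fell with TGFβ1, and 5.33% rose and 6.15% fell with BMP2. With the offset 4 rose and 6 fell with TGFβ1, where 25.3% of all tested genes rose and 23.9% fell. With BMP2 4 then rose and 3 fell, where 6.83% of all tested genes rose and 6.4% fell. Without either vehicle replicate the BMP2 counts were 2 risen and 1 fallen, 1 also fell without BMP2 replicate 1 or 3, and without vehicle replicate 1 the number risen with TGFβ1 was 3. Nfatc1, a calcium-regulated factor of articular cartilage progenitors, rose with both ligands over all libraries, with 44.4, 45.1 and 49.3 CPM with BMP2, 192 and 209 CPM with TGFβ1, and 33.6 and 30.5 CPM with vehicle. Its log2 fold changes against vehicle were 0.53 (adjusted p = 0.0157) with BMP2 and 2.64 (adjusted p = 5.81e-08) with TGFβ1, the second being 2.79 with the offset. The BMP2 call was lost without BMP2 replicate 3 (0.48, adjusted p = 0.0694), vehicle replicate 1 (0.60, adjusted p = 0.0854) or vehicle replicate 2 (0.47, adjusted p = 0.189). Runx1, a RUNX factor of early chondrocytes, rose with TGFβ1 by 2.75 (adjusted p = 1.76e-07; 3.18 with the offset). Sp7 and Mef2c, factors of hypertrophy and bone, followed the order of Sox8: Sp7 had 73.0, 67.5 and 70.2 CPM with BMP2, 13.9 and 18.6 CPM with TGFβ1, and 31.8 and 24.9 CPM with vehicle. Sp7 rose with BMP2 by 1.31 (adjusted p = 0.000415), and Mef2c rose by 1.05 (adjusted p = 0.000546). Foxc1, a forkhead factor of skeletal development, fell with TGFβ1 by 1.04 (adjusted p = 3.49e-05; 0.87 with the offset) and with BMP2 by 0.68 (adjusted p = 0.00230), all on the log2 scale.

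The genes whose pattern over the 7 libraries was most like that of each SOX gene were found by the distance between centred log2 CPM among 8057 genes. Nearest to Sox9 were Appl2, which encodes an endosomal adaptor (distance 0.0983), Unc5c, a netrin receptor (0.136), and Lipo3, a lipase family member (0.160). Nearest to Sox8 were Gse1 (0.353), Scd1, a fatty acid desaturase (0.436), and Ppif, a mitochondrial cyclophilin (0.484). Sox4 was nearest to Dcn, which encodes decorin (0.377), then Cnn2 and Dab2ip, and among the genes nearest to Sox11 were Zfp629 (0.175) and Maml2 (0.250). Sox5 was nearest to Map3k2 (0.107), Zhx2 and Ginm1, and Sox6 to Cat, the catalase gene (0.118), Tpr and Ash1l. Among the 6 SOX genes themselves the closest pair was Sox5 and Sox6 at a distance of 0.413, then Sox4 and Sox11 at 0.712, both pairs of 1 group. Sox9 was closer to Sox6 (1.17) than to Sox8 (1.62), and the pair farthest apart was Sox4 and Sox8 (4.45). Depth differed with treatment and was highest in the TGFβ1 libraries. These distances are a description of 7 points only, and no offset was applied to them.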

How the data were processed

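The authors deposited 1 table of read counts, whole numbers by gene name in each of the 7 libraries, and a length of each gene. Per the submitters' processing notes the genome build was mm10 and the tools included cutadapt, STAR 2.4.2a, Subread, featureCounts and DESeq2, listed without their roles. How strand and multi-mapped reads were handled is not stated. For all 6 SOX genes the deposited length equalled the summed exons of GENCODE M21, which was used for positions and transcript lengths.

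Counts were tested with edgeR 4.0.16 in R 4.3.3. The filter filterByExpr kept 13367 genes, TMM scaled the libraries, and all 7 entered a single quasi-likelihood model with 1 term for each group (4 residual degrees of freedom, common coefficient of variation 0.133). Each of the 3 comparisons was 2-sided, p-values were adjusted by Benjamini-Hochberg over the whole table, and the threshold was 0.05. CPM used the TMM-scaled totals. The offset was made in each library from lowess trends of log2 CPM on principal transcript length (span 0.15), then GC content (span 0.3), for 13229 genes. The fits were tested on simulated data.

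Genes named besides the SOX genes are the 4 of each list with the smallest p in a comparison, with Col2a1 and Acan, of which the text gives a part. Of the 3 genes most like each SOX gene, 1 is not reported here. Sox7, Cdh5, Pecam1, Egfl7, Fabp4, Lum, Col14a1, Pdgfra, Cd34, Cspg4, Ibsp and Sox10 are named from the other SOX genes and marker lists. Hapln1, Col9a3, Matn3, Susd5 and Papss2 are named because their groups had the same order as those of Sox8. The members, lists, offset and alternatives were chosen with earlier results of these data known. Alternatives were DESeq2 1.42.0, DESeq2 size factors, raw totals, no filter, the 2 groups alone, a replicate block, the offset, an offset from the deposited lengths, transcripts of at least 2000 nt, each library left out, and, chosen after seeing the data, the offset with 1 of 3 libraries left out. Depth limits Sox11 and Sox8 most, which had the fewest counts of the 6.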

Additional observations from a re-analysis of the deposited data

How the results depend on the processing

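Across 18 alternatives each, the calls of Sox9, Sox8 and Sox4 were the same in every comparison in which they passed: log2 fold changes ranged from -1.55 to -1.07 for Sox9 and -1.82 to -1.37 for Sox8 with TGFβ1 over vehicle, from 1.21 to 1.46 for Sox8 and -1.32 to -1.16 for Sox4 with BMP2 over vehicle, and from 1.29 to 1.75, 2.72 to 3.18 and -1.23 to -0.996 for Sox9, Sox8 and Sox4 with BMP2 over TGFβ1. With the length and GC offset, Sox5 (-0.053) and Sox6 (-0.047) no longer passed with TGFβ1, Sox4 (0.015) and Sox11 (0.49) changed sign, 1 member rose and 2 fell. With the offset from deposited lengths, chosen after seeing the data, Sox5 was -0.12, Sox6 -0.15 and Sox11 0.16, and 2 members fell. Sox11 with TGFβ1 was 0.10 among transcripts of at least 2000 nt and -0.26 to 0.064 with 1 library left out. BMP2 over vehicle, Sox6 was 0.0017 with the length and GC offset and 0.030 with that from deposited lengths. BMP2 over TGFβ1, Sox5 was -0.20 with the length and GC offset, -0.093 with that from deposited lengths, 0.36 with no filter on low counts, and 0.24 to 0.40 with 1 library left out, passing without BMP2 replicate 1. Sox6 in that comparison was 0.048 and 0.18 with these 2 offsets. Sox11 did not pass in DESeq2, at -0.71 for BMP2 over vehicle and -0.61 for BMP2 over TGFβ1, which left 1 member lower in each comparison; with 1 library left out it was -0.82 to -0.64 and -0.80 to -0.48, and the members called lower were 1 to 2 in each. The length and GC offset was combined, after seeing the data, with leaving out TGFβ1 replicate 1, TGFβ1 replicate 3 or BMP2 replicate 1. In that order, with TGFβ1 over vehicle, Sox5 was -0.040, -0.057 and -0.046, Sox6 -0.16, 0.056 and -0.034, and Sox11 0.59, 0.38 and 0.51, of which the last alone passed. Sox4 was 0.044 without TGFβ1 replicate 1 and 0.029 without BMP2 replicate 1, and 2 members fell each time, with 1 risen without BMP2 replicate 1. BMP2 over TGFβ1, Sox5 was -0.22, -0.20 and -0.13 and Sox6 0.15, -0.064 and 0.071. BMP2 over vehicle without BMP2 replicate 1, Sox6 was 0.037 and Sox11 -0.64, which did not pass and left 1 member lower. The causes were not tested, except that the offsets act on length by construction.

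Deviations of same-numbered libraries from their group means had correlations from -0.152 to -0.004. In a group of 2 libraries these deviations mirror each other. The correlations therefore cannot show whether same-numbered libraries share an animal or culture. The replicate block gave 354 genes higher and 417 lower with BMP2, against 713 and 822 without it, and Sox11 at -0.78 (adjusted p = 0.0745), which left 1 member lower; Arid5b, Acan and Nfatc1 did not pass with BMP2, and 1 of the 25 SOX targets rose and 2 fell. With 1 library left out, 245 to 810 genes were higher and 312 to 891 lower with BMP2, and DESeq2 called 546 lower. Transcripts of at least 2000 nt gave 2544 genes higher and 2216 lower with TGFβ1, and 2865 lower for BMP2 over TGFβ1, from fewer genes tested.

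Among other genes, Col2a1 for BMP2 over TGFβ1 was -0.023 with the length and GC offset, -0.012 with that from deposited lengths, -0.11 for transcripts of at least 2000 nt and -0.062 to 0.19 with 1 library left out. Med12 with TGFβ1 was 0.25, 0.15 and 0.10 under these 3 settings and -0.31 to 0.11 with 1 library left out. With 1 library left out, Sox13 was -0.15 to 1.03 for BMP2 over TGFβ1 and -0.56 to 0.63 for TGFβ1 over vehicle, and Ctbp2 was -0.0098 to 0.18 for BMP2 over vehicle. With the offset and TGFβ1 replicate 1, TGFβ1 replicate 3 or BMP2 replicate 1 left out, Med12 was 0.30, 0.20 and 0.27 with TGFβ1, Col2a1 for BMP2 over TGFβ1 was -0.073 without TGFβ1 replicate 1 and -0.046 without BMP2 replicate 1, and Sox13 was -0.63 for TGFβ1 over vehicle without TGFβ1 replicate 1 and -0.11 for BMP2 over TGFβ1 without TGFβ1 replicate 3. None of these passed, but Sox13 did at 1.16 for BMP2 over TGFβ1 with the offset and TGFβ1 replicate 1 left out. Raw totals moved the median log2 ratio of all tested genes by -0.46 for TGFβ1 over vehicle and by 0.45 for BMP2 over TGFβ1. No model was fitted on raw totals, and the ranges given above leave them out. With raw totals the 6 SOX genes kept their signs, and Sox9 was -1.90 and Sox8 -2.07 for TGFβ1 over vehicle. Sox5 was then -1.11, Sox6 -1.16, Sox4 -0.71 and Sox11 -0.60 in that comparison. For BMP2 over TGFβ1, Sox9 was 2.09, Sox8 3.38, Sox4 -0.57 and Sox11 -0.15.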
